A study of Mus musculus with 6 samples.

Results

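The insulin-like growth factor axis was followed through 8 genes picked by name from the 24421 of the count table: the ligand gene Igf1, the receptor genes Igf1r, Igf2r and Insr, the binding protein genes Igfbp4 and Igfbp7, and the substrate genes Irs1 and Irs2. All 8 had a row, and all 8 were among the 13803 genes that passed the filter on low counts. The genes were proposed with the comparison described here already known, in which Igf1 was among the largest falls. Fold changes of the 8 genes are therefore given as a description and carry no test.

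RNA was sequenced from 3 DEK-treated and 3 vehicle-treated libraries of lineage-depleted femoral bone marrow, each numbered 1 to 3. All mice were C57BL/6 and carried the Dek -/- genotype, so both groups lack the same gene and no wild-type marrow was compared. Lineage depletion removes most mature blood cells with antibodies on columns, and the DEK-treated cells received the protein from outside before RNA was taken. The age of the mice, the dose and the length of treatment are not given in the labels, nor is it said whether equal numbers share an animal, so the spread between libraries may be technical.

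IGF1 is a secreted growth factor that binds the receptor tyrosine kinase encoded by Igf1r and, with lower affinity, the related insulin receptor encoded by Insr. The activated receptors phosphorylate the adaptors IRS1 and IRS2, which recruit phosphoinositide 3-kinase and switch on AKT. The product of Igf2r has no kinase: it takes IGF2 from the surface into lysosomes and carries mannose 6-phosphate-tagged enzymes. Binding proteins hold the ligand outside the cell. Macrophages and stromal cells are both known to make IGF1 in tissues.

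Depth ran from 42496076 to 49128378 counts in the DEK libraries and from 34875736 to 48867857 counts in the vehicle libraries. The ribosomal RNA gene Rn45s held 4.89% of the counts of vehicle replicate 1. In the other vehicle libraries it held 0.273% and 0.297%, and in the DEK libraries 0.159% to 0.331%. With Rn45s removed, the log2 fold change of Igf1 without pairing was -1.85. Both libraries numbered 3 stood apart: the summed level of 10 neutrophil markers was 63750 CPM (read counts scaled to library size by the TMM method) in DEK replicate 3 and 66813 CPM in vehicle replicate 3, against 6076 to 8058 CPM in the other DEK libraries and 6338 to 6870 CPM in the other vehicle libraries. Markers of stem and progenitor cells, which the depletion should enrich, were all 12 among the tested genes, with sums of 812 to 1174 CPM in DEK libraries and 710 to 1255 CPM in vehicle libraries. Dek had 17.02 ± 0.490 CPM in DEK libraries and 18.7 ± 2.71 CPM in vehicle libraries (SD, n = 3 each). Since the deleted exons are not named in the labels, this level over the whole gene is no check of the genotype.

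When counts were divided by exon length, the 8 genes fell into 4 tiers. Igfbp4 was by far the most abundant, with a mean over all 6 libraries of 139 RPKM (CPM divided by exon length in kilobases, range 116 to 179). The receptor and substrate genes Igf1r, Insr, Irs2 and Igf2r followed at means of 9.42, 7.10, 5.17 and 3.85 RPKM. Igfbp7 and the ligand gene Igf1 stood at 1.01 and 0.928 RPKM, and Irs1 was lowest at 0.0445 RPKM. Igfbp4, the middle block of 4 genes, the pair Igfbp7 and Igf1, and Irs1 were separated by gaps that no library crossed. Within the middle block the ranges of neighbours overlapped across libraries, but in each of the 6 libraries Igf1r exceeded Insr, Insr exceeded Irs2 and Irs2 exceeded Igf2r. The order of Igfbp7 and Igf1 differed between the groups: Igfbp7 was the higher one in 4 of 6 libraries. These were every DEK library and vehicle replicate 2, while Igf1 was the higher one in vehicle replicates 1 and 3.

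**Figure D1:**
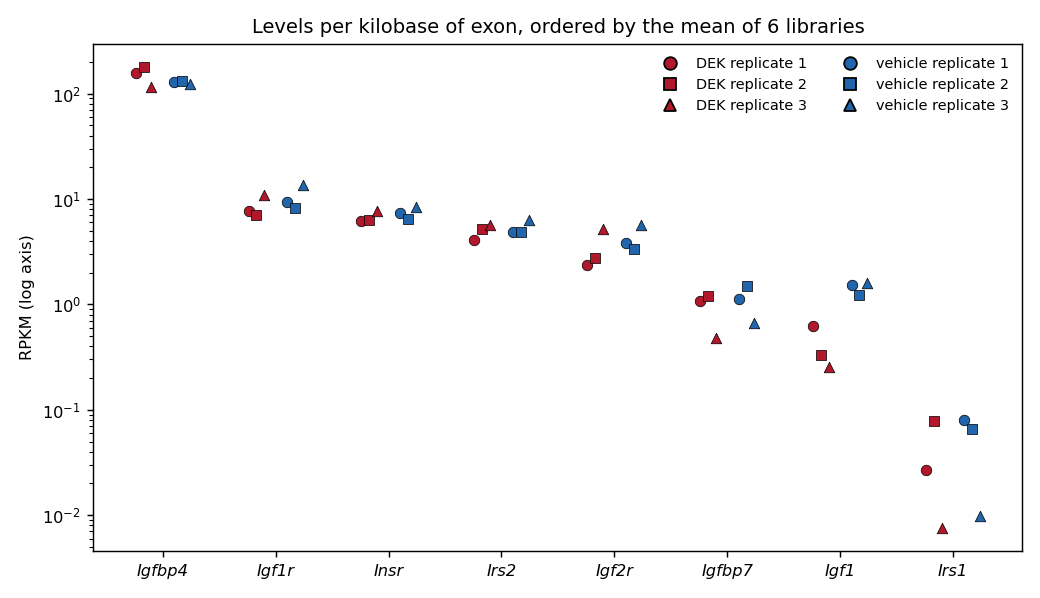
Level of each gene in RPKM on a log axis, 1 point per library, DEK libraries left of vehicle libraries and genes ordered by their mean over 6 libraries. Igfbp4 lies above 100 RPKM in every library and Irs1 below 0.1 RPKM, and Igf1 is the gene whose DEK and vehicle points do not overlap.

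Igf1, the ligand gene, lies on mm10 chromosome 10 (87859056 to 87937047, plus strand), with 6 exon blocks and 7817 bases of exon in the table, and no exon of another gene overlaps it there. The RefSeq start site listed for the gene lies 2055 bases downstream of the first exon start in the table, so the counts also cover transcripts that begin farther upstream. The 250 bases before that RefSeq start (chr10:87860861-87861110, plus strand, GRCm38.p6) are shown because Igf1 had the largest difference between the groups among the 8 genes.
Igf1 promoter: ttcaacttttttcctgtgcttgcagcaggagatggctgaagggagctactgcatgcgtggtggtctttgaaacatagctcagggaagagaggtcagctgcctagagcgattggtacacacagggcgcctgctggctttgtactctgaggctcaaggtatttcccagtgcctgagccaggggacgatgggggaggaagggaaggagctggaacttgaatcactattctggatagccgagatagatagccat
No letters are in capitals because none of the searched motifs was found on either strand. These were TTCNNNGAA of STAT factors, TTGCNNAA of C/EBP factors and AGGAAGT of the PU.1 type. These motifs occurred in 8.30%, 10.8% and 9.35% of the 32851 windows of 300 bases in the RefSeq table, and a missing match says nothing about the factors.

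Igf1 was lower in every DEK library than in any vehicle library. It had 217, 132 and 86 counts in DEK replicates 1, 2 and 3, against 595, 386 and 415 counts in vehicle replicates 1, 2 and 3. Scaled, these were 4.85, 2.60 and 1.99 CPM in the DEK libraries and 12.1, 9.66 and 12.4 CPM in the vehicle libraries. The groups did not overlap, and the lowest DEK value was that of replicate 3. The means were 3.15 ± 1.503 CPM with DEK and 11.4 ± 1.48 CPM with vehicle (SD, n = 3 each). The fitted log2 fold change was -1.85 ± 0.35 (SE) without pairing and -1.92 ± 0.24 (SE) within pairs of equal replicate number, a level 3.78-fold lower with DEK. The log2 differences of pairs 1, 2 and 3 were -1.31, -1.87 and -2.61. In bulk RNA, fewer cells that make Igf1 and less Igf1 RNA per cell cannot be told apart.

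Of the 8 genes, 1, Igf1, was past an adjusted p of 0.05 in edgeR's quasi-likelihood test within pairs, where 1.28% of all tested genes were called, 0.869% as higher and 0.413% as lower with DEK. On 1 simulated data set per fit, the edgeR fits called unchanged genes more often than the threshold allows, this paired one most of all. Each call within pairs given here is therefore less firm than its adjusted p. The fitted fall of Igf1 was exceeded by 18 of the 13803 genes, or 0.13%. Because the gene was chosen with this contrast known, nothing is read from the call. Without pairing, edgeR called 0 of the 8 and 0 of all genes (0%), although 360 genes (2.61%) had an unadjusted p under 0.05. DESeq2 without pairing called 56 genes (0.406%; 0.254% higher and 0.152% lower with DEK), Igf1 among them, and limma-voom called 0. DESeq2 within pairs called 2.54% of genes (1.7% higher and 0.833% lower with DEK), again with Igf1 as the 1 gene of the 8. Over 21 alternative settings Igf1 was past the threshold in 9. The fold of Igf1 was 3.01 within pairs without the libraries numbered 3, and 3.79 without those numbered 2, where edgeR called 0 genes and Igf1 lost its call. Within pairs, edgeR called 1.3% of genes without the libraries numbered 1 (1.03% higher and 0.266% lower with DEK), 4.64% without those numbered 3 (2.37% higher and 2.27% lower with DEK), and 2.67% with library totals in place of TMM (1.54% higher and 1.13% lower with DEK). Igf1 was also the 1 gene of the 8 whose groups did not overlap, a pattern found in 7.19% of tested genes, with the DEK libraries lower in 3.41%. The median log2 fold change within pairs was -0.27 over the 8 genes and 0.00 (-0.00278) over all genes, with 7 of the 8 below 0.

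**Figure D2:**
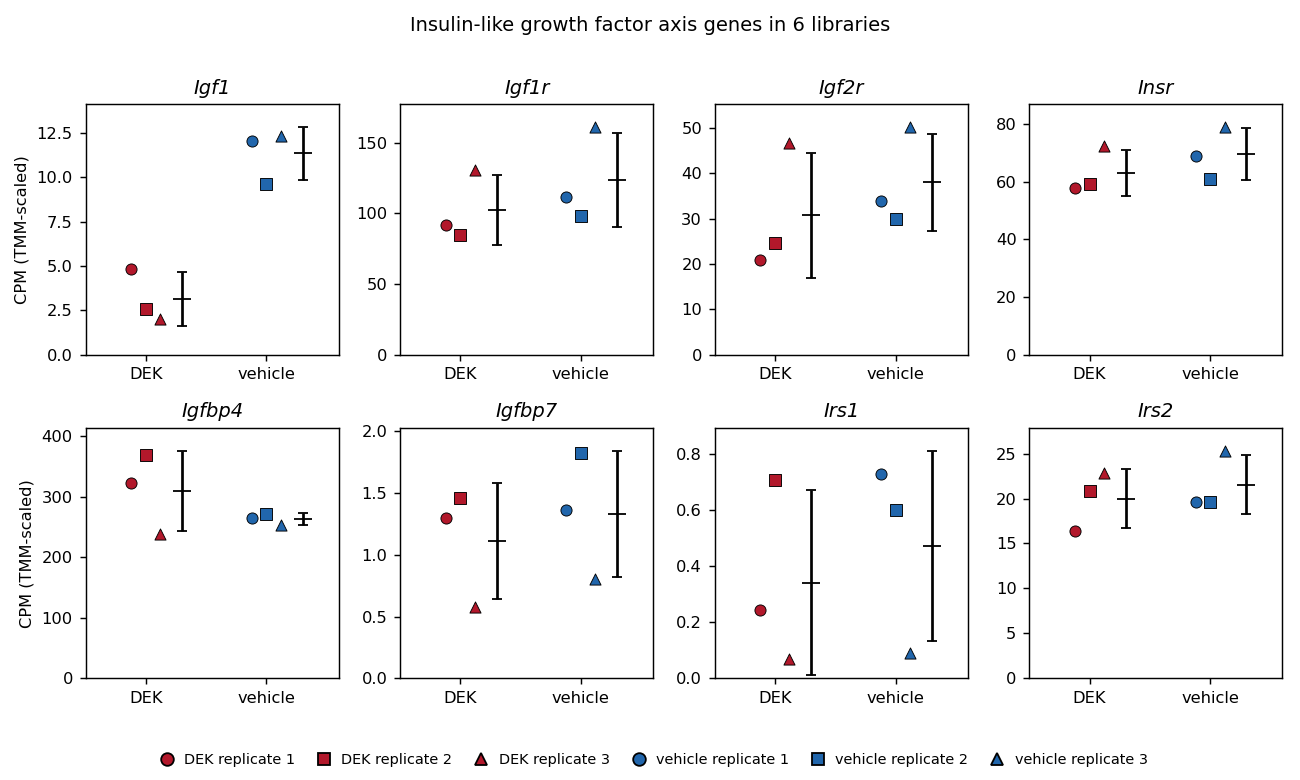
CPM of each of the 8 genes in the 3 DEK libraries (left in each panel) and the 3 vehicle libraries (right), with the mean and SD beside the points. The DEK points of Igf1 lie at 1.99 to 4.85 CPM and its vehicle points at 9.66 to 12.4 CPM, and in the other 7 panels the groups overlap.

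**Figure D3:**
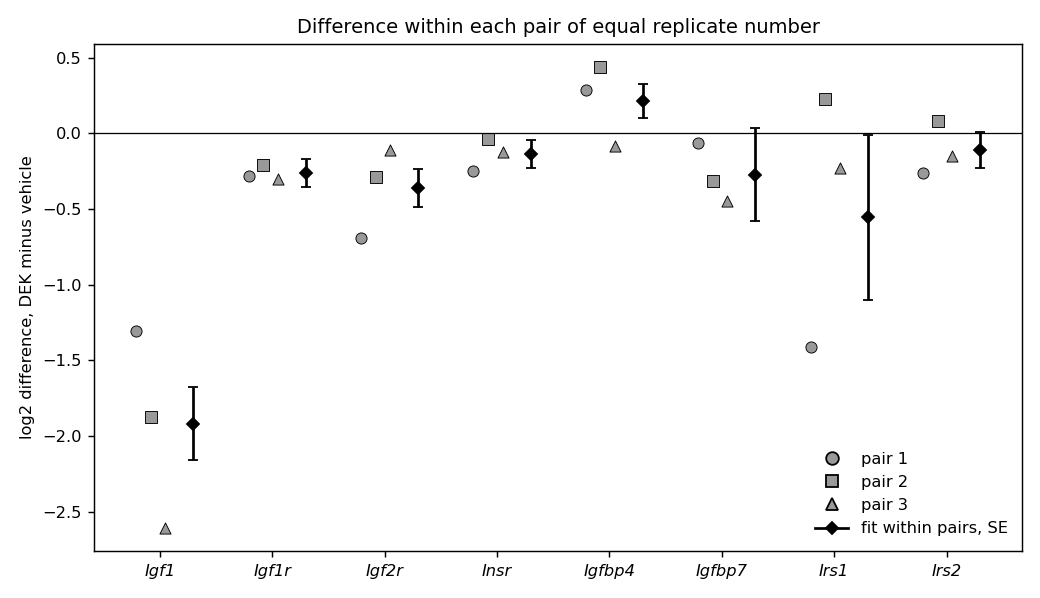
Log2 difference between DEK and vehicle, as DEK minus vehicle, in each pair of equal replicate number (grey) and fitted within pairs with its standard error (black). Igf1 lies between -2.61 and -1.31 in all 3 pairs, while the other genes lie within 0.7 of 0 apart from Irs1 in pair 1.

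The receptor genes were expressed in every library, and for each of them the groups overlapped. Igf1r, on chromosome 7 (67952257 to 68233667, plus strand), codes for the receptor through which IGF1 signals. It had 91.6, 84.6 and 131 CPM in DEK libraries and 111, 97.8 and 161 CPM in vehicle libraries. Each pair was lower with DEK, by log2 differences of -0.28, -0.21 and -0.30, but the libraries numbered 3 were the highest of both groups and the groups overlapped. Within pairs the log2 fold change was -0.26 ± 0.09 (SE). Insr, on chromosome 8 (3150922 to 3279617, minus strand), codes for the insulin receptor, which can also form hybrids with the IGF1 receptor. It had 58.0, 59.3 and 72.4 CPM in DEK libraries and 69.0, 60.8 and 79.0 CPM in vehicle libraries. The groups overlapped, and the log2 fold change within pairs was -0.14 ± 0.09 (SE). On the scale per length, the ratio of Igf1r to Insr was 1.12 to 1.41 in DEK libraries and 1.26 to 1.59 in vehicle libraries, highest in replicate 3 of each group.

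Igf2r, on chromosome 17 (12682406 to 12769706, minus strand), codes for the cation-independent mannose 6-phosphate receptor. The 60 bases before its RefSeq start (chr17:12769707-12769766, minus strand, GRCm38.p6) are shown because they hold the E-box CACGTG, the core of the element shared by many lysosomal genes, 2 times, in capitals.
Igf2r promoter: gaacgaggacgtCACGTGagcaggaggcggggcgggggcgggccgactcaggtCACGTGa
Windows of 300 bases with at least 2 copies of CACGTG made up 0.594% of the RefSeq table and those with at least 1 made up 7.15%. This sequence and the one of the substrate genes were picked after the windows had been read, and a match is not evidence of binding. Igf2r had 21.0, 24.6 and 46.6 CPM in DEK libraries and 33.95, 30.0 and 50.2 CPM in vehicle libraries. Replicate 3 was the highest in each group, 2.04 times the mean of the other 2 libraries with DEK and 1.57 times with vehicle. The log2 differences were -0.69, -0.29 and -0.11 in pairs 1, 2 and 3, and the fit within pairs gave -0.36 ± 0.13 (SE). Without the libraries numbered 3 the log2 fold change within pairs was -0.49 ± 0.14 (SE), which passed the threshold in a fit that called 641 genes (4.64%). The same libraries without pairing gave -0.488 ± 0.14 (SE), not past the threshold (adjusted p = 0.184, edgeR).

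The binding protein genes lay far apart in level. Igfbp4, on chromosome 11 (99041260 to 99052643, plus strand), codes for a secreted protein that holds IGF1 and IGF2 until it is cut by a protease. It was the 1 gene of the 8 with a fold change above 0. Its levels were 322, 369 and 239 CPM in DEK libraries and 265, 273 and 254 CPM in vehicle libraries. Replicates 1 and 2 were higher with DEK and replicate 3 was lower, at log2 differences of 0.28, 0.44 and -0.09, so the groups overlapped. Within pairs the log2 fold change was 0.21 ± 0.11 (SE). Igfbp7, on chromosome 5 (77349240 to 77408045, minus strand), codes for a related secreted protein that binds the growth factors only weakly. It had 58, 74 and 25 counts in DEK libraries and 67, 73 and 27 counts in vehicle libraries. Its exons overlap those of Polr2b on the opposite strand, and reads in the shared stretch were not counted, so its level is uncertain. Its log2 fold change within pairs was -0.27 ± 0.31 (SE), smaller than its error.

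The insulin receptor substrates Irs1 and Irs2 code for the adaptors that link the receptors to phosphoinositide 3-kinase. Both RefSeq promoters hold CACGTG joined to TGTTTTG, a core that FOXO factors can bind, and 50 bases of each are shown with these letters in capitals (chr1:82291520-82291569 and chr8:11008939-11008988, both minus strand, GRCm38.p6).
Irs1 promoter: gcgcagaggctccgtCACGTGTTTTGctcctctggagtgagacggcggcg
Irs2 promoter: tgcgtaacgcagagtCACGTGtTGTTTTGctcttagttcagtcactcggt
In Irs1 the motifs share 2 bases and in Irs2 they are 1 base apart. Of the 32851 windows, 12 (0.0365%) held TGTTTTG sharing bases with CACGTG or following it on the same strand within 10 bases, and those of Irs1 and Irs2 were among them. TGTTTTG alone was present in 6.28% of windows. The FOXO motif TGTTTAC was searched as well, occurred in 3.65% of windows and was found in 0 of the 7 member windows. The arrangement was looked for after it had been seen in these genes.

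The substrate genes differed widely in level. Irs2 (minus strand of chromosome 8, 10986964 to 11008430) showed 733, 1055 and 987 counts in DEK libraries and 966, 786 and 850 counts in vehicle libraries. This is 20.0 ± 3.31 CPM with DEK and 21.5 ± 3.28 CPM with vehicle (SD, n = 3 each), with a log2 fold change within pairs of -0.11 ± 0.12 (SE). The groups overlapped. Exons of 9530052E02Rik overlap Irs2 on the opposite strand, so its count leaves out any read that falls in both genes. Irs1 (minus strand of chromosome 1, 82233105 to 82291439) showed 11, 36 and 3 counts in DEK libraries and 36, 24 and 3 counts in vehicle libraries. The log2 difference was -1.41 in pair 1, 0.23 in pair 2 and -0.23 in pair 3, and the fit within pairs gave -0.55 ± 0.54 (SE). At these counts no difference between the groups was detectable. The ratio of Irs2 to Irs1 per length was 66.9 to 751 in DEK libraries and 61.3 to 647 in vehicle libraries.

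Replicate 3 of each group differed from the other libraries in several of the 8 genes by more than DEK differed from vehicle. Irs1 was 7.09-fold lower in DEK replicate 3 than in DEK replicates 1 and 2 together (exact 95% interval 2.28 to 35.6) and 7.53-fold lower in vehicle replicate 3 (2.45 to 37.5). Igfbp7 was 2.39-fold lower in DEK replicate 3 (1.55 to 3.82) and 1.95-fold lower in vehicle replicate 3 (1.29 to 3.07). These intervals cover counting error only, since the reads carry no molecular identifiers. Igf1r was 1.48 times as high in DEK replicate 3 and 1.54 times as high in vehicle replicate 3 as the mean of the others. Igf1 itself went separate ways, at 0.534 times the mean of the other libraries in DEK replicate 3 and 1.14 times in vehicle replicate 3. Neutrophil markers moved with replicate 3 as given above, and their part in these values was not tested.

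Profiles like those of the members were sought among the 12102 tested genes that averaged 1 CPM or more, by the root mean square distance between log2 CPM profiles, each centred on its mean over the 6 libraries. This was done for the 4 members that ranged over more than 1 log2 unit, and it is a description over 6 libraries. The gene nearest to Igf1 was Mrc1, which codes for the macrophage mannose receptor, at a distance of 0.35. Mrc1 had 57.8, 31.4 and 14.7 CPM in DEK libraries and 73.8, 81.0 and 113 CPM in vehicle libraries, and as with Igf1 the gap was widest in pair 3. Pmp22, Fam198b, Bcar3 and Scel came next, at distances of 0.40, 0.51, 0.52 and 0.55. Igf2r lay closest to Ndst1, which codes for an enzyme of heparan sulfate synthesis, at 0.06. Igfbp7 lay closest to Bfsp2 at 0.11, and Irs1 to Hal, which codes for histidine ammonia-lyase, at 0.36. With the 4 libraries numbered 1 and 2 alone, 0 of the 5 genes nearest to Igf1 remained among its nearest 5. Ndst1, Bfsp2 and Hal likewise dropped out of the nearest 5 of Igf2r, Igfbp7 and Irs1.

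Because macrophages make IGF1, a list of 18 macrophage markers was set beside Igf1, all of them tested. This and the other marker lists were chosen with earlier results of these data known. Their counts and medians are therefore given as a description and carry no test of the list. Without pairing, edgeR called 0 of the 18 and 0 of all genes. Within pairs 4 fell and 0 rose by edgeR, where 0.413% of all genes were called as lower and 0.869% as higher. The median log2 fold change within pairs was -0.35, against 0.00 (-0.00278) over all genes. The 4 were C1qb and C1qc, which code for chains of the complement component C1q, Gas6, a ligand of the TAM receptors, and Mertk, one of these receptors. C1qb had 1.76, 2.01 and 8.17 CPM in DEK libraries and 8.56, 5.70 and 17.1 CPM in vehicle libraries, a log2 fold change of -1.58 ± 0.22 (SE; adjusted p = 0.0107, edgeR within pairs). Mertk had 0.603, 0.276 and 1.87 CPM in DEK libraries and 2.66, 2.48 and 4.85 CPM in vehicle libraries. In both genes replicate 3 was the highest library of its group, and the C1qb values of the groups overlapped while those of Mertk did not. The differences of Gas6, Mertk, C1qb and C1qc were smallest in pair 3, whereas that of Igf1 was largest there. Mrc1, which is also on this list, went as Igf1 did, with log2 differences of -0.353, -1.365 and -2.946 in pairs 1, 2 and 3. Leaving out the libraries numbered 3, 8 of the 18 markers fell within pairs in a fit that called 2.27% of all genes as lower. Without those numbered 1 only C1qb did, where 0.266% of all genes were called as lower. Without those numbered 2 there were 0, in a fit that called 0 genes.

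The most abundant macrophage markers were not past the threshold. Csf1r, the receptor of the growth factor M-CSF, had 1320 ± 365 CPM with DEK and 1002 ± 242 CPM with vehicle (SD, n = 3 each; log2 fold change 0.39, adjusted p = 0.126, edgeR within pairs). Adgre1, the gene of the F4/80 antigen, had 462 ± 45.3 CPM with DEK and 502 ± 139 CPM with vehicle (adjusted p = 0.836, edgeR within pairs). The sum over the 18 markers ranged from 2437 to 3215 CPM in DEK libraries and from 2307 to 3002 CPM in vehicle libraries, and 0 of them were at 0. Monocytes also express Csf1r and Adgre1. Stromal markers were scarce: 9 of 14 did not pass the filter on low counts, Bglap, Col3a1 and Dcn among them, and the sum, mostly Pdgfrb, was 19.81 to 38.03 CPM with DEK and 21.85 to 37.95 CPM with vehicle. The 8 endothelial markers summed to 241 to 278 CPM with DEK and 218 to 316 CPM with vehicle. Eosinophil markers were lower with DEK in every pair: the 10 summed to 11492, 8407 and 3634 CPM in DEK replicates 1, 2 and 3, against 14720, 13361 and 5023 CPM in vehicle replicates 1, 2 and 3, and 2 of the 10 fell within pairs. That count was 3 without the libraries numbered 1, 0 without those numbered 2, 8 without those numbered 3 and 7 with library totals. The share of all genes called as lower was 0.413% with all pairs. In the other fits just named it was 0.266%, 0%, 2.27% and 1.13%, in that order. Of 8 tested basophil and mast cell markers, 0 passed within pairs, where 1.28% of all tested genes did. Their median log2 fold change was -0.30. The 10 markers of that list summed to 2899, 2567 and 2130 CPM in DEK replicates 1, 2 and 3, against 3753, 3805 and 1712 CPM in vehicle replicates 1, 2 and 3, lower with DEK in pairs 1 and 2 and higher in pair 3. Without the libraries numbered 3, 6 of the 10 fell (2.27% of all genes), and with library totals 1 of 8 did (1.13% of all genes). Of 8 monocyte markers, 2 rose within pairs and 0 fell, where 0.869% of all genes were called as higher. The number that rose was 1 without the libraries numbered 1 (1.03% of all genes). It was 0 without those numbered 2, where 0 genes were called. It was 2 without those numbered 3 (2.37% of all genes) and 2 with library totals (1.54% of all genes). The part of macrophage, monocyte, eosinophil, basophil and mast cell, stromal or endothelial content in the level of Igf1 was not tested.

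**Figure D4:**
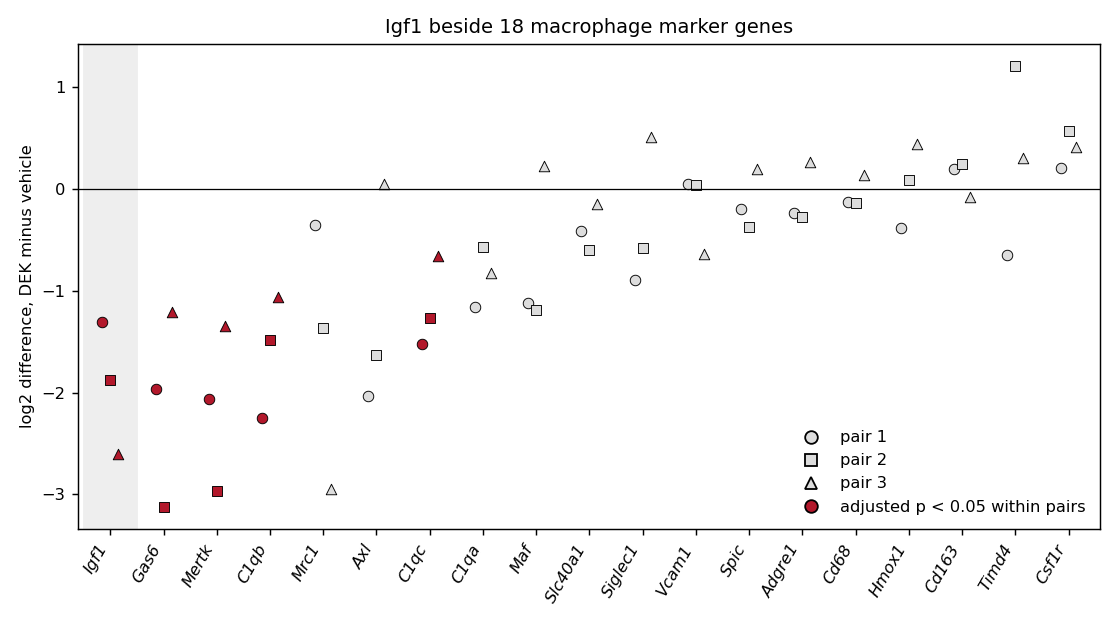
Log2 difference, DEK minus vehicle, in each pair of equal replicate number for Igf1 (shaded) and 18 macrophage markers ordered by their fold change within pairs. The markers were chosen with earlier results of these data known. Red marks genes past an adjusted p of 0.05 within pairs: Igf1, Gas6, Mertk, C1qb and C1qc lie below 0 in all 3 pairs, while Csf1r at the right lies above 0.

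The rest of the pathway was read from 5 lists of genes outside the 8, also chosen with earlier results of these data known. Among 21 ligands, binding proteins and their regulators, 6 were tested and 0 passed within pairs, where 1.28% of all tested genes did. Ins1, Ins2, Igfbp1, Igfbp2, Igfbp3 and Stc1 had 0 counts in all 6 libraries. Igf2 had 0.301 ± 0.145 CPM with DEK and 0.443 ± 0.158 CPM with vehicle, and Igfbp6 had 1.42 ± 0.428 CPM with DEK and 1.87 ± 0.757 CPM with vehicle (SD, n = 3 each). Htra1, a secreted protease that can cut binding proteins, had 1.85, 3.08 and 5.58 CPM in DEK libraries and 1.54, 1.28 and 1.07 CPM in vehicle libraries. Its groups did not overlap, but its log2 fold change of 1.29 ± 0.38 (SE) was not past the threshold (adjusted p = 0.23, edgeR within pairs, 0.0311 to 1 over 21 alternatives, past it in 3). Stc2, an inhibitor of the protease PAPP-A that cuts IGFBP4, had a log2 fold change of -0.91 ± 0.33 (SE; adjusted p = 0.273, edgeR within pairs, 0.0962 to 1 over 21 alternatives).

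Growth hormone, acting through its receptor and STAT5, is the main inducer of Igf1 in liver. Of the 6 genes of that axis 0 passed within pairs in either direction, where 1.28% of all tested genes did. Ghr, the receptor gene, had 1.501 ± 0.732 CPM with DEK and 1.63 ± 0.581 CPM with vehicle (SD, n = 3 each). Socs2 and Cish, feedback genes of STAT5, had log2 fold changes of -0.42 ± 0.28 and 0.33 ± 0.24 (SE; adjusted p = 0.618 and 0.671, edgeR within pairs). The directions of both varied with the libraries used.

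Below the receptors, 1 of 26 signalling genes rose, 0 fell and 25 did not pass within pairs (0.869% of all genes higher, 0.413% lower). The gene that rose was Slc2a1, which codes for the glucose transporter GLUT1. It had 46.8, 63.0 and 68.1 CPM in DEK libraries and 35.0, 34.9 and 39.1 CPM in vehicle libraries. The groups did not overlap, and the log2 fold change was 0.69 ± 0.11 (SE; adjusted p = 0.0107, edgeR within pairs, higher in 3 of 3 pairs). Without pairing it was not past the threshold (adjusted p = 1, edgeR), and over 21 alternative settings its adjusted p ranged from 5.88e-05 to 1. The genes of the kinases and their partners, such as Pik3ca, Akt1, Mtor and Foxo1, had log2 fold changes within 0.27 of 0, and the list's median was -0.04.

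Of 20 inhibitors of receptor signalling, 0 passed within pairs, where 1.28% of all tested genes did, and the median was 0.08. Nearest were Ptpn1, which codes for a phosphatase of the insulin receptor, at 0.48 ± 0.11 (SE; adjusted p = 0.0545, edgeR within pairs) and Grb14, an adaptor that blocks the receptor kinase, at 0.78 ± 0.19 (SE; adjusted p = 0.0721, edgeR within pairs). Ptpn1 had 305, 421 and 403 CPM in DEK libraries and 260, 256 and 285 CPM in vehicle libraries, without overlap. Over 21 alternatives the adjusted p of Ptpn1 ranged from 0.00565 to 1 and that of Grb14 from 0.026 to 1, each past the threshold in 4. Without the libraries numbered 3, 4 of the 20 rose, Grb14, Ptpn1, Socs1 and Socs3, and Pik3ip1 fell. In that fit 2.37% of all genes were called as higher and 2.27% as lower with DEK. Without those numbered 1, 1 rose, Socs3 (1.03% of all genes). Without those numbered 2 there were 0, where 0 genes were called. With library totals 3 rose, Grb14, Ptpn1 and Socs3 (1.54% of all genes).

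AKT keeps FOXO factors out of the nucleus, and Irs2 and Insr are known FOXO targets. Of 16 tested FOXO targets outside the members, 1 rose and 0 fell within pairs (0.869% and 0.413% of all genes), and the median log2 fold change was -0.02. That gene was Sod2, mitochondrial superoxide dismutase, which is also a target of NF-kB. Sod2 had 227, 330 and 206 CPM in DEK libraries and 135, 109 and 86.3 CPM in vehicle libraries. All DEK values were above all vehicle values, with a log2 fold change of 1.20 ± 0.16 (SE; adjusted p = 0.0157, edgeR within pairs, higher in 3 of 3 pairs). Without pairing its adjusted p was 0.695 by edgeR, 0.00256 by DESeq2 and 0.00749 by edgeR without the libraries numbered 3, and over 21 alternatives it ranged from 2.39e-18 to 1. Leaving out the libraries numbered 2 ended the calls of both Slc2a1 and Sod2 (adjusted p = 0.504 and 0.314, edgeR within pairs), and leaving out those numbered 3 gave 3 falling FOXO targets of 16, Txnip, Tsc22d3 and Il7r, where 2.27% of all genes were called as lower.

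**Figure D5:**
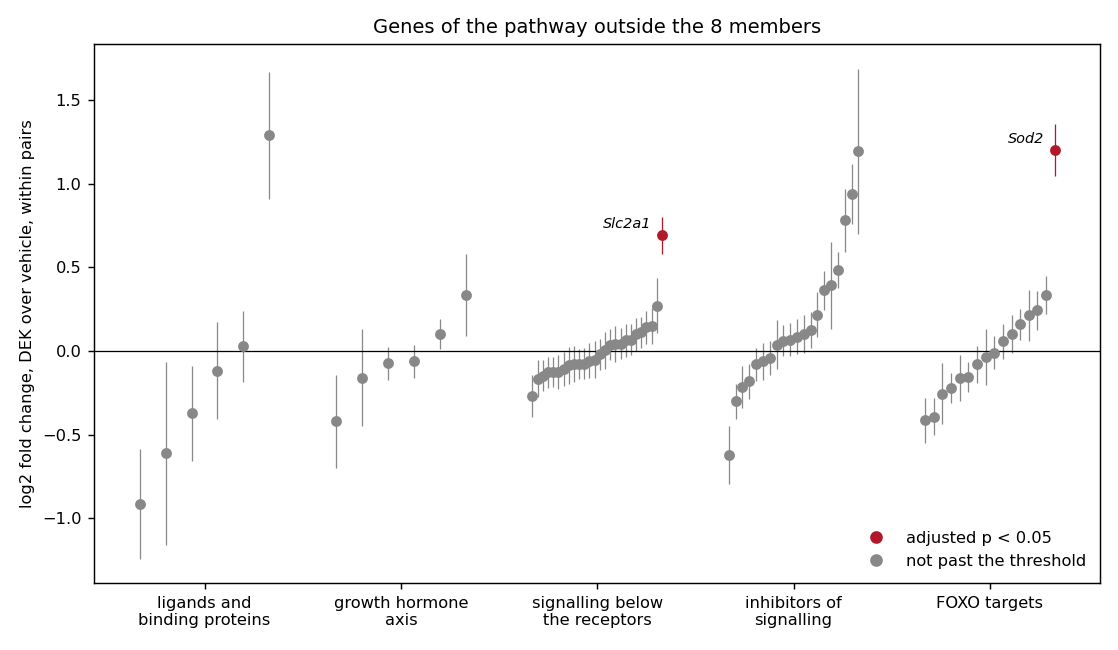
Log2 fold change within pairs, DEK over vehicle, with its standard error, for each tested pathway gene outside the 8, sorted within 5 lists. Slc2a1 at 0.69 and Sod2 at 1.20, in red, are the 2 genes past an adjusted p of 0.05.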

How the data were processed

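Polyadenylated RNA of 6 libraries was sequenced from strand-specific libraries, per the labels' protocols. The deposited values are read counts per gene and, in a further column, exon length. Per the file headers, the authors counted exons grouped by gene on mm10 with featureCounts 1.6.1, from 1 alignment per library, with no strand or overlap option, so reads in exons of more than 1 gene were not counted. Trim Galore, STAR, HTSeq and edgeR are named in the submitters' processing notes.

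Of 18049 genes with a read, 13803 passed filterByExpr. Groups were compared in R 4.3.3 with edgeR 4.0.16 (TMM, robust quasi-likelihood test, two-sided, Benjamini-Hochberg over all genes tested, threshold 0.05), with DESeq2 1.42.0 and limma 3.58.1 as alternatives. Log2 CPM used a prior count of 2. The fit without pairing was the main one. Equal replicate numbers were taken as pairs because their deviations from the group mean correlated by 0.552, 0.558 and 0.799 across genes. Numbers 1 and 2 also correlated across each other (0.408 and 0.523). The group means include the libraries numbered 3, which stood apart in both groups, so numbers 1 and 2 correlate in either combination. These values therefore show a difference shared by the libraries numbered 3 and cannot decide how numbers 1 and 2 pair. For numbers 1 and 2 the pairing is an assumption, and the fits within pairs rest on it. The common coefficient of variation was 33.1% without and 13.1% with pairing. Each edgeR fit was tested on 1 simulated data set. Both recovered the simulated fold changes, but both called more unchanged genes than the nominal false discovery rate allows. The fit within pairs did so more, and this was not corrected. The difference shared by the libraries numbered 3 was not simulated, so the false discovery rate in these data was not measured.

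Members and lists were chosen with earlier results of these data known. All 8 members are named. Of each pathway list, up to 4 called genes are named, or the 2 with the smallest p within pairs, and other list genes were named after their values were seen. Promoters are from RefSeq (GRCm38.p6), where 7 of the 8 members matched. A window runs from 250 bases before to 50 after a start site.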

Additional observations from a re-analysis of the deposited data

How the results depend on the processing

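The number of genes called was 0 in the unpaired edgeR fit. It was 177 with the replicate block, 56 with DESeq2, 168 without both libraries numbered 3, and 181, 0 and 641 with the block without pair 1, 2 or 3. Leaving out single libraries gave 0 to 1. With the block and, as alternatives added after the data were seen, no filter, DESeq2 size factors, library totals or DESeq2, it was 349, 176, 368 and 350. The share called higher with the block was 67.8% with TMM and 57.6% with library totals.

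The log2 fold change of Igf1 was below 0 in all 21 alternatives. It was past the threshold with the replicate block (-1.92), with DESeq2 (-1.85), without both libraries numbered 3 (-1.55), and with the block and no filter (-1.91), DESeq2 size factors (-1.92), library totals (-1.94) or DESeq2 (-1.93). Leaving out libraries or pairs gave -2.31 to -1.55, or -2.25 and -1.59 in the paired fits that called it, without pairs 1 and 3. For Igf2r these fits gave -0.74 to -0.06, with 1 call at -0.49. Signs turned for 3 members when libraries were left out: Igfbp7 (-0.51 to 0.0437), Irs1 (-1.58 to 0.10) and Irs2 (-0.22 to 0.0287). Igfbp4 stayed above 0, and Igf1r, Igf2r and Insr below it, in all 21. Socs2 (-1.05 to 0.12) and Cish (-0.40 to 1.01) turned too. The causes were not tested. In the filtered edgeR fit with TMM, the pairing changed the calls of Igf1, Slc2a1 and Sod2, and of no other member or of Htra1, Stc2, Ptpn1, Grb14, Socs2 and Cish. With DESeq2 or library totals it changed those of Htra1, Ptpn1 and Grb14, and without the libraries numbered 3 that of Igf2r among the members. DESeq2 called Igf1 and Sod2 with and without pairing.

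By CPM without length, Igf1 moved to place 6, Igf2r to 4, Igfbp7 to 7 and Irs2 to 5. Irs1 had 3 to 36 counts in a library, so its level and fold change are uncertain.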

Other observations

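Insrr, which codes for the insulin receptor-related receptor, did not pass the filter on low counts and was chosen after its values were seen. It had 1, 2 and 26 counts in DEK replicates 1, 2 and 3, against 0 counts in each of the 3 vehicle libraries. Nearly all of its reads came from 1 library, so it is given as a value without a comparison.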
